A study of Mus musculus with 15 samples.

Results

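The comparison described here is that of the Cre virus with the control virus over both cohorts of the study. Total RNA was sequenced from punches of the rostral ventrolateral medulla (RVLM), a brainstem region that drives sympathetic outflow. All 15 libraries entered: 7 from mice given AAV-CRE-GFP (PRR RVLM-Null, here Null, labelled CRE) against 8 from mice given AAV-GFP (WT), with cohort as a term in the model. The question was which genes differed alike before and on DOCA-salt. Of 55421 genes in the count table, 21926 were protein-coding and 14852 passed the filter of more than 1 CPM (counts scaled to library size) in at least 1 library.

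All mice were adults that carried floxed *Atp6ap2*, the X-linked gene of the (pro)renin receptor (PRR), so WT here means floxed mice without Cre. At baseline, 4 WT and 4 Null libraries were made 3 weeks after the virus. On DOCA-salt, 4 WT and 3 Null libraries were made after 13 days with a pellet of 50 mg deoxycorticosterone acetate and 0.15 M NaCl as the only drink. The study's methods give fewer WT than Null libraries on DOCA-salt, the reverse of the labels, which were followed, so a DOCA-salt library may sit in the other virus group. By the study's methods, at least 3 weeks passed between the virus and the pellet, so DOCA-salt mice carried the virus longer than baseline mice. The cohorts were separate animals, so cohort, DOCA-salt and time since the virus cannot be told apart. The virus groups stood side by side within each cohort. Labels write the baseline genotype as PRRf/y and the DOCA-salt genotype as PRRf/f, but call all mice female. By *Xist* and Y-linked genes, 9 libraries had a female and 6 a male pattern, the latter in 2 of 8 WT and 4 of 7 Null libraries. The virus was injected locally and the tissue was a needle punch of both sides, so cells without virus and tissue around the RVLM may be part of it, and the methods name a CMV promoter, active in many cell types, for the AAV of a companion set of mice but none for the sequenced mice. The labels do not say that each library was 1 animal, so p-values measure the spread between libraries. The level of *Pnmt*, which marks adrenaline-producing neurons of the C1 group of the RVLM, was at most 0.244 CPM at baseline and at most 1.26 CPM on DOCA-salt.

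Library totals ran from 19053970 to 30504796 counts. Ribosomal RNA of mitochondria took 20.3% to 28.8% of counts at baseline and 2.42% to 5.84% on DOCA-salt, except for 19.1% in the library labelled DOCA-CRE replicate 3. That library also went against its label at *Atp6ap2*. In bulk tissue, fewer cells of a type and less RNA per cell cannot be told apart.

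PRR binds renin and prorenin and is also an accessory subunit of the V-ATPase, the pump that acidifies lysosomes and secretory vesicles. Interferons induce a broad antiviral program through receptors whose signal reaches interferon-stimulated response elements in the promoters of target genes. Guanylate-binding proteins (GBPs) and immunity-related GTPases (IRGs) are products of this program and attack the membranes around intracellular pathogens.

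No gene passed the test of the Cre virus over both cohorts. With edgeR's quasi-likelihood test, 0 of 14852 genes (0%) reached an adjusted p (Benjamini-Hochberg) of 0.05, with or without a 2-fold limit, and the smallest adjusted p was 0.660. At an unadjusted p under 0.05 there were 856 genes (5.76%), of which 548 (3.69%) were on the higher and 308 (2.07%) on the lower side in Null mice. DESeq2 called 1 gene (*Gbp10*), the edgeR likelihood ratio test 4 (*Gbp10*, *Drd1*, *Gm17190* and *Myh4*, the last pair named after their values were seen) and limma voom 0. The split of the genes at an unadjusted p under 0.05 moved with the scaling, from 64% on the higher side to 83.9% with upper quartile factors, 74.6% without scaling factors and 37.7% with voom. All genes below are therefore given as values that did not pass, ordered by p.

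The 12 leading genes on the higher side, among those with the same direction in both cohorts and averaging 1 CPM or more in the virus group with the higher level, were *Gbp10*, *Ddx58*, *Parp14*, *Mecr*, *Gbp5*, *Gbp7*, *Prdm16*, *Gm43302*, *Ppl*, *Gbp3*, *Gbp9* and *Oasl2*. Of these, 5 encode GBPs and 8 are GBP genes or members of a list of interferon-stimulated genes. *Drd1*, of smaller p than all of them, was left out by that mean, which was 0.993 CPM in Null libraries, and is described with the genes of separate groups. Their log2 differences ran from 0.35 to 3.10. The 12 leading genes on the lower side were *Cgref1*, *Tmed3*, *Prmt2*, *B3galt1*, *Spryd7*, *Hsd17b7*, *Uts2b*, *Gabrg1*, *Gm43518*, *Dlat*, *Armc6* and *Zfp9*, with log2 differences from -1.23 to -0.18, and 0 of them are in the interferon list. All 24 had an adjusted p of 0.825.

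Promoter sequences are shown for 5 of the interferon-inducible genes that the results turn on, as each holds the core of an interferon-stimulated response element. They come from RefSeq (GRCm38.p6, the build of the count table) and run 5′ to 3′ on the strand of the gene, 250 bases before to 50 after its start. Capitals mark a pair of GAAA letters with any 2 bases between them, searched on both strands and here read on the opposite one as TTTC, 2 bases, TTTC. The windows lie at chr3:142620413-142620712 (+) for *Gbp2*, chr3:142559794-142560093 (+) for *Gbp3*, chr3:142496684-142496983 (+) for *Gbp5*, chr3:142530086-142530385 (+) for *Gbp7* and chr4:40239776-40240075 (-) for *Ddx58*.
Gbp2: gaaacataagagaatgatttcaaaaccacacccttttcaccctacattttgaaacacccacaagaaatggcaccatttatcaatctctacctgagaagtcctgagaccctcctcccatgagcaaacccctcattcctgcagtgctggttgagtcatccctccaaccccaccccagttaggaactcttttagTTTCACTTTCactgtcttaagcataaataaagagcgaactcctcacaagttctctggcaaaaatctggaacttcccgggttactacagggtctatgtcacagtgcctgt
Gbp3: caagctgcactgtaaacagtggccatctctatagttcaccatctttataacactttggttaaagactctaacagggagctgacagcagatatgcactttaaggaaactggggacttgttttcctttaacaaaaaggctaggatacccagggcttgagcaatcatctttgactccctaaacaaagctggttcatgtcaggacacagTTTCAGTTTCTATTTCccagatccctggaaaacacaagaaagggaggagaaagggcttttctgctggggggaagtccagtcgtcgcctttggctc
Gbp5: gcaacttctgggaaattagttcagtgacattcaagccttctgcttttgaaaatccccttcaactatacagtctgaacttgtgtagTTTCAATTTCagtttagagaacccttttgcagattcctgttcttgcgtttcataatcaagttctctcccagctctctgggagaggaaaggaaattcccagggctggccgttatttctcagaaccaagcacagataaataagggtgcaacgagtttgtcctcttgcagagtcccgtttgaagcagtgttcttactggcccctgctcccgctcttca
Gbp7: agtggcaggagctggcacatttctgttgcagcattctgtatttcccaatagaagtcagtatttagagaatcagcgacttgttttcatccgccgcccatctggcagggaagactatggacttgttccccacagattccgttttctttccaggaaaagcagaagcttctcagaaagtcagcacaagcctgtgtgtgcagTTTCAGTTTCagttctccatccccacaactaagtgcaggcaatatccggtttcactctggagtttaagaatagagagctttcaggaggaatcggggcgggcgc
Ddx58: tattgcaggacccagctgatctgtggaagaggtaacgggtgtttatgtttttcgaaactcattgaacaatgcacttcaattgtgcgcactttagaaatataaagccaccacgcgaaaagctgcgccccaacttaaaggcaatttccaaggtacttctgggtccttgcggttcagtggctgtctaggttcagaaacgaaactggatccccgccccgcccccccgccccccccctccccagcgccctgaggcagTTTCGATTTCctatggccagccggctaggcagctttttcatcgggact
In *Gbp3* a pair of overlapping matches forms 1 run. The match in *Ddx58* starts at base 253 of its window, just past the start of the gene. The spaced GAAA pair was found in 1131 of 32851 promoter windows (3.44%). Counted per gene, in any of its windows, it was in 16 of the 31 interferon-list genes with a window. It was in 4 of 4 GBP genes and 5 of 5 IRG genes with one. The share per window is not the matching rate for counts per gene. TTCNNNGAA (N any base), also searched, was in 8.3% of windows and in 6, 2 and 4 genes of the same lists. A match is a description of letters, and binding was not measured.

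The 9 GBP genes lie in a pair of clusters. On chromosome 3, *Gbp5*, *Gbp7*, *Gbp3* and *Gbp2* span positions 142493978 to 142638008, and on chromosome 5, *Gbp8*, *Gbp9*, *Gbp4*, *Gbp10* and *Gbp6* span 105014150 to 105293698 (GENCODE vM21). The chromosome 3 genes do not overlap each other. On chromosome 5, *Gbp8*, *Gbp9* and *Gbp4* overlap on the same strand, as do *Gbp10* and *Gbp6* with *Gm43302*, so reads there may be split between near-identical genes and their single values are uncertain.

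*Gbp3* was read at 11.3, 10.3, 9.22 and 10.8 CPM in WT libraries 1 to 4 and at 31.7, 14.2, 15.7 and 11.9 in Null libraries at baseline. On DOCA-salt it was 12.02, 12.2, 7.50 and 14.8 in WT and 38.4, 17.2 and 14.6 in Null libraries. The groups were separate at baseline and overlapped by 1 library on DOCA-salt, and replicate 1 was the highest Null library in both cohorts. The log2 difference over both cohorts was 0.91 (SE 0.23), with an exact two-sided permutation p = 0.000816 over the virus label within cohort, for which 0.000408 is the smallest value that 2450 labellings allow. *Gbp3* was chosen by its small p in the same libraries, so this exact p adds no support. That holds for every gene below chosen by its p or after its values were seen.

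*Gbp7* showed the same order of groups. Its levels were 10.6, 8.39, 8.39 and 13.5 CPM in WT and 28.3, 12.4, 13.1 and 16.2 in Null libraries at baseline. They were 14.0, 10.7, 10.05 and 13.1 in WT and 25.0, 16.4 and 16.4 in Null libraries on DOCA-salt. The groups overlapped at baseline and were separate on DOCA-salt. Over both cohorts this was a log2 difference of 0.74 (SE 0.18, exact permutation p = 0.00163).

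*Gbp5* was at 3.84, 4.72, 1.72 and 3.73 CPM in WT and 9.54, 3.96, 6.84 and 5.22 in Null libraries at baseline, and at 3.61, 4.13, 3.84 and 3.70 in WT and 7.18, 6.09 and 6.55 in Null libraries on DOCA-salt. In the DOCA-salt cohort the groups were separate and tight. Its log2 difference was 0.83 (SE 0.20, exact permutation p = 0.000816).

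*Gbp2* had 4.40, 5.62, 3.45 and 4.70 CPM in WT libraries at baseline, against 21.9, 5.24, 8.19 and 5.15 in Null libraries. On DOCA-salt it had 6.52, 3.88, 4.02 and 4.78 in WT and 12.5, 5.82 and 9.14 in Null libraries. Both cohorts overlapped and the highest library was again replicate 1 of the Null group. The mean shift on the log2 scale was 1.05 (SE 0.29, exact permutation p = 0.00571).

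Of the chromosome 5 genes, *Gbp10* followed *Drd1* in order of p over the whole comparison, with a log2 difference of 3.10 (SE 0.67). It was near the floor in WT mice, at 0.0699, 0, 0 and 0.324 CPM at baseline and 0.697, 0.167, 0.179 and 0.559 on DOCA-salt. Null libraries had 5.41, 0.511, 0.431 and 1.17 CPM before DOCA-salt and 4.14, 0.902 and 1.92 on it. The groups did not overlap in either cohort. *Gbp10* and *Gbp8* passed the filter on low levels through Null libraries alone, which favours a higher value there. Log2 differences were 1.43 for *Gbp6*, 1.18 for *Gbp8*, 0.84 for *Gbp4* and 0.68 for *Gbp9*, so all 9 GBP genes were on the higher side in both cohorts. Each of the 7 that passed the filter in WT libraries too had an unadjusted p under 0.05, where 3.69% of all genes were higher at that level, and the smallest interaction p among the 9 was 0.266. This family was chosen after its values were seen.

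**Figure D1:**
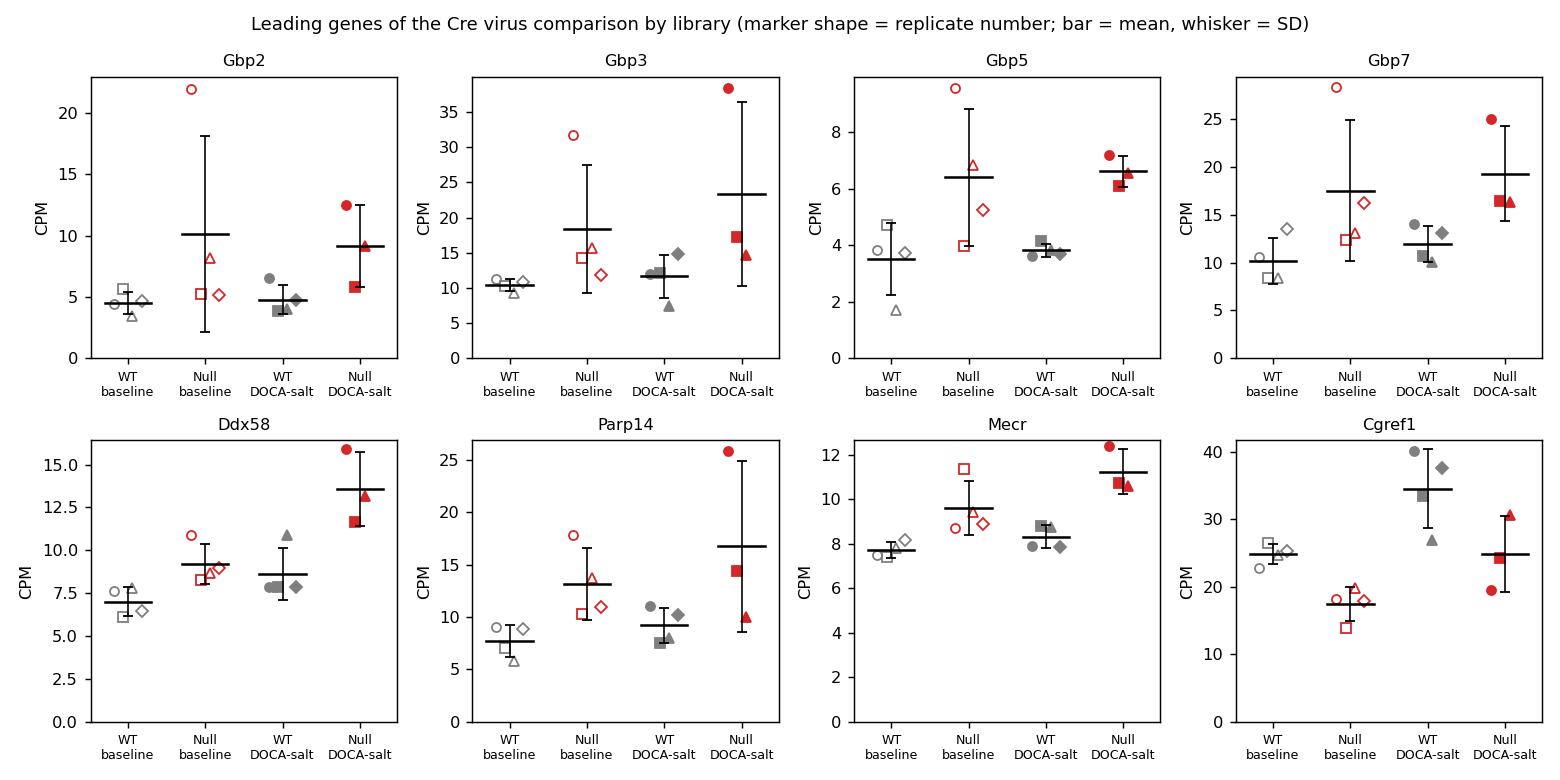
Level in CPM (vertical axis, from 0) of 8 genes in each library of the 4 groups, WT in grey and Null in red, open at baseline and filled on DOCA-salt. Marker shape is the replicate number, the bar the mean and the whisker the SD. *Gbp3* reaches 31.7 and 38.4 CPM in replicate 1 of the Null groups, whereas *Mecr* is spread evenly and separate in both cohorts.

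The 6 IRG genes measured, also chosen after their values were seen, were all on the higher side in both cohorts. Each of them that passed the filter in WT libraries too had an unadjusted p under 0.05. Over all genes, 22.7% were higher in both cohorts and 3.69% were higher at that level. Log2 differences were 1.93 for *Iigp1*, 1.67 for *Tgtp2*, 1.37 for *Igtp*, 1.25 for *Tgtp1*, 1.18 for *Irgm2* and 0.73 for *Irgm1*. *Tgtp1* passed the filter through Null libraries alone, which favours a higher value there. Without Baseline-CRE replicate 1 the values were 1.26, 0.87, 0.74, 0.83, 0.60 and 0.37 in the same order. *Igtp* and *Irgm2* overlap on the same strand, and *Tgtp1* and *Tgtp2* are close copies, so their single values are uncertain. Summed over the 6 genes, WT libraries had 18.6, 21.8, 22.9 and 21.7 CPM and Null libraries 161.2, 23.4, 32.6 and 37.0 at baseline. On DOCA-salt the sums were 36.9, 22.4, 22.1 and 25.1 in WT and 66.0, 28.6 and 42.6 in Null libraries. The groups were separate at baseline, where 1 library stood far above the rest, and overlapped on DOCA-salt.

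Summed GBP levels were 41.2, 42.6, 37.3 and 48.2 CPM in WT and 143.7, 53.8, 60.0 and 58.9 in Null libraries at baseline. On DOCA-salt they were 51.4, 44.8, 35.1 and 54.1 in WT and 129.0, 65.1 and 74.3 in Null libraries. Every Null library was above every WT library of its cohort. Since replicate 1 led both Null groups, the families were read again without both libraries. All 9 GBP genes stayed on the higher side in both cohorts with an unadjusted p under 0.05, with a median log2 difference of 0.54 against 0.91 with all libraries. All 6 IRG genes stayed on the higher side in both cohorts, 4 of them with an unadjusted p under 0.05, with a median of 0.62 against 1.31. Without these libraries, 18.9% of all genes were higher in both cohorts and 2.85% were higher at that level. These counts kept the filter set on all 15 libraries. *Gbp10*, *Gbp8* and *Tgtp1* had passed it through Null libraries alone, and *Tgtp1* does not pass it without both libraries. The counts of both families are thus partly fixed by the filter, and the shares over all genes are not a matching rate for them. Both families were chosen after their values were seen.

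The list of interferon-stimulated genes held 42 members, of which 40 were tested. In Null mice 38 of them were on the higher side, against 49.9% of all genes, and 34 were higher in both cohorts, against 22.7% of all genes. No member was lower in both, against 19.7% of all genes. At an unadjusted p under 0.05, 23 were higher and 0 lower, against 3.69% and 2.07% of all genes, and 0 passed the adjusted test. The median log2 difference was 0.58 over both cohorts, 0.39 at baseline and 0.68 on DOCA-salt, against -0.00025 over all genes. Without Baseline-CRE replicate 1 and DOCA-CRE replicate 1, 10 members were higher at an unadjusted p under 0.05, against 2.85% of all genes. The median was then 0.29, with 32 higher in both cohorts, against 18.9% of all genes. Without the library labelled DOCA-CRE replicate 3, 27 members were higher at that level, against 3.79% of all genes, and the median was 0.61.

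By role, sensors of viral RNA and signal carriers come first in the program, and *Ddx58* and *Irf9* among them were on the higher side. *Ddx58* encodes RIG-I, a sensor of viral RNA, and lies on chromosome 4 from 40203773 to 40239828. Its levels were 7.62, 6.11, 7.79 and 6.48 CPM in WT and 10.9, 8.24, 8.68 and 8.97 in Null libraries at baseline, and 7.84, 7.88, 10.9 and 7.86 in WT and 15.9, 11.6 and 13.1 in Null libraries on DOCA-salt. The groups did not overlap in either cohort, and the log2 difference was 0.52 (SE 0.11, exact permutation p = 0.000816). Without the 2 libraries named above it was 0.40. *Irf9*, a transcription factor of the interferon response, had a log2 difference of 0.45 (SE 0.14) and overlaps *Rnf31* on its strand. *Dhx58*, which encodes the related sensor LGP2, had -0.06, with -0.44 at baseline and 0.32 on DOCA-salt. It was 1 of the 2 tested members on the lower side, and the other was *Cmpk2* (-0.04), a mitochondrial nucleotide kinase named after its value was seen.

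Among effectors, *Parp14*, an ADP-ribosyltransferase, was at 9.02, 7.01, 5.84 and 8.83 CPM in WT and 17.8, 10.3, 13.7 and 10.9 in Null libraries at baseline, and at 11.04, 7.55, 7.97 and 10.2 in WT and 25.8, 14.4 and 10.04 in Null libraries on DOCA-salt. The groups were separate at baseline and overlapped on DOCA-salt through replicate 3. The log2 difference was 0.82 (SE 0.19, exact permutation p = 0.00122). The log2 differences of *Oasl2*, an oligoadenylate synthetase-like protein, *Parp9*, a partner of an antiviral ubiquitin ligase, and *Ifit3*, which blocks viral RNA, were 0.85 (SE 0.22), 0.63 (SE 0.17) and 0.78 (SE 0.28). *Parp9*, *Psmb9*, *Prdm16*, *Aph1a*, *Rbl2*, *Armc6* and *B3galt1* each overlap a gene on the other strand. So do *Gbp2*, *Tgtp1*, *Tgtp2*, *Dhx58*, *Nlrc5*, *H2-T23*, *Psmb8*, *Spryd7*, *Ppp2ca*, *Slc6a4*, *Ddc* and *Cyba*. Whether counting used strand is not given in the sources used here. *Isg15*, a ubiquitin-like modifier, had 0.95 (SE 0.46) and *Ifi44*, an antiviral protein of the cytosol, 1.10 (SE 0.37). *Ifit3* was much the highest in 1 library, with 62.5 CPM in Null DOCA-salt replicate 1 against 18.2 and 17.8 in the others of that group and 11.7 to 18.2 in WT. Without that library the log2 differences were 0.37 for *Ifit3*, 0.33 for *Isg15* and 0.58 for *Ifi44*.

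**Figure D2:**
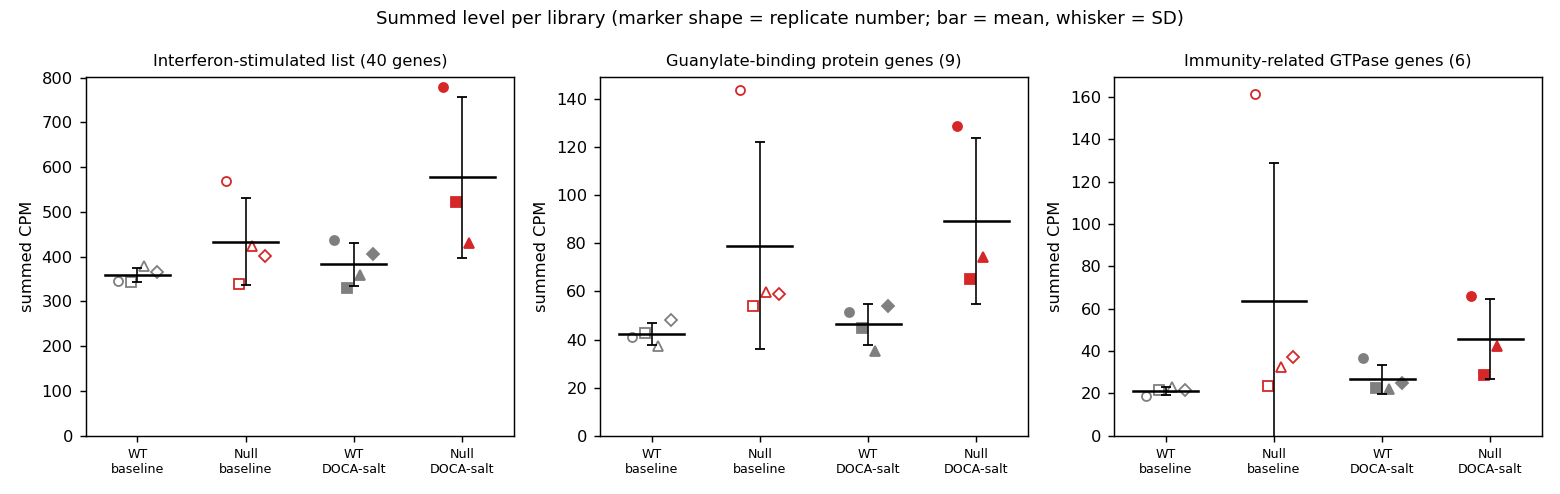
Summed CPM per library (vertical axis, from 0) of the 40 interferon-stimulated genes tested, the 9 GBP genes and the 6 IRG genes in the 4 groups, WT in grey and Null in red. Marker shape is the replicate number, the bar the mean and the whisker the SD. GBP sums of Null libraries lie above those of WT in both cohorts, with 143.7 and 129.0 CPM in replicate 1.

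The summed level of the interferon list was 346.9, 344.7, 379.4 and 366.2 CPM in WT and 568.5, 339.2, 423.8 and 402.6 in Null libraries at baseline. On DOCA-salt it was 438.0, 329.8, 359.9 and 406.8 in WT and 778.9, 522.0 and 430.7 in Null libraries. The groups overlapped in both cohorts, at baseline through Null replicate 2, which was below all WT libraries.

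Antigen presentation genes, which the same cytokines induce, were on the higher side mainly through 1 library. Of 18 tested, 17 were higher over both cohorts and 11 in both, against 49.9% and 22.7% of all genes. At an unadjusted p under 0.05, 6 were higher, against 3.69% of all genes, and the median log2 difference was 0.41. Without Baseline-CRE replicate 1 these counts were 11, 8 and 3 and the median was 0.18. The last pair of counts then stands against 22.2% and 3.38% of all genes. *Nlrc5*, the transactivator of class I genes, was at 0.909, 2.36, 2.92 and 2.03 CPM in WT and 14.4, 3.19, 3.02 and 1.87 in Null libraries at baseline, and at 4.88, 2.42, 3.52 and 5.66 in WT and 11.9, 8.53 and 7.56 in Null libraries on DOCA-salt. The groups overlapped at baseline and were separate on DOCA-salt, and the log2 difference was 1.32 (SE 0.37, exact permutation p = 0.00653). *H2-T23*, a nonclassical class I gene, had 0.47 (SE 0.15), and *Psmb9* and *Psmb8*, subunits of the immunoproteasome, had 0.92 (SE 0.31) and 0.60 (SE 0.24). Without Baseline-CRE replicate 1 the log2 difference was 0.84 for *Nlrc5* and 0.38 for *Psmb8*.

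Markers of cells that carry or answer interferon were read beside these genes. Of 21 microglia markers 19 were on the higher side and 13 in both cohorts, against 49.9% and 22.7% of all genes. The 2 at an unadjusted p under 0.05, where 3.69% of all genes were higher, were *Ly86* (0.41) and *Aif1* (0.47). The markers had a median of 0.15. Their summed level ranged from 503.8 to 682.3 CPM in WT and from 473.4 to 800.3 in Null libraries at baseline, and from 374.0 to 699.9 and from 481.5 to 755.6 on DOCA-salt. The highest microglia sum at baseline was in Baseline-CRE replicate 1. Without it 8 of 21 were higher in both cohorts, against 22.2% of all genes, and 0 had an unadjusted p under 0.05, with a median of 0.09. Without the library labelled DOCA-CRE replicate 3, 16 were higher in both, against 22% of all genes. In that case 0 had such a p and the median was 0.19. Of 20 markers of infiltrating leukocytes only 2 were high enough to be tested. The T cell genes *Cd3e*, *Cd3g*, *Cd8a*, *Cd8b1* and *Trbc2* together had 0 to 11 counts in WT and 8 to 30 in Null libraries at baseline, and 5 to 55 and 13 to 49 on DOCA-salt, with the 30 counts in Baseline-CRE replicate 1. *Ifng* had 0 counts in 9 of 15 libraries and at most 4, and *Ifnb1* 0 in 11 and at most 8. The part of these cells in the interferon values was not tested.

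The groups did not overlap in either cohort for 14 of 14852 genes (0.0943%), 8 on the higher (0.0539%) and 6 on the lower side (0.0404%). When virus labels are exchanged within cohort, the groups separate in a given direction in a share of 0.000408 of the 2450 labellings. The shares found were near it, so the genes named are a description of levels. Such separation also puts the exact permutation p at or near its floor, so that p adds no support. Within a single cohort, separate groups were more common: 578 genes were higher (3.89%) and 652 lower (4.39%) at baseline, and 578 higher (3.89%) and 719 lower (4.84%) on DOCA-salt. The 8 higher genes were *Gbp10* and *Ddx58*, described above, and *Drd1*, *Mecr*, *Prdm16*, *Ect2l*, *Aph1a* and *Rbl2*. Of the 8, *Gbp10*, *Drd1* and *Ect2l* passed the filter through Null libraries alone, so 5 had reached it in WT libraries too.

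*Drd1* encodes the dopamine D1 receptor and had the smallest p of all genes (unadjusted p = 4.44e-05), but its mean was 0.310 CPM in WT and 0.993 in Null libraries. Its levels were 0.349, 0.244, 0.674 and 0.567 CPM in WT and 0.827, 1.02, 1.42 and 1.72 in Null libraries at baseline, and 0.164, 0.125, 0.144 and 0.209 in WT and 0.821, 0.526 and 0.621 in Null libraries on DOCA-salt. The log2 difference was 1.67 (SE 0.30), with 1.42 at baseline and 1.98 on DOCA-salt. Unlike the GBP genes, *Drd1* was not led by replicate 1 at baseline, where that was the lowest Null library.

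*Mecr* encodes an enoyl reductase of mitochondrial fatty acid synthesis. It was at 7.48, 7.41, 7.79 and 8.19 CPM in WT and 8.72, 11.4, 9.42 and 8.89 in Null libraries at baseline, and at 7.88, 8.80, 8.76 and 7.86 in WT and 12.4, 10.7 and 10.6 in Null libraries on DOCA-salt. The log2 difference was 0.37 (SE 0.09, exact permutation p = 0.000408, a floor near which separate groups alone place it). It was between 0.33 and 0.40 under all 31 alternatives tried. *Prdm16*, a transcriptional regulator, had 0.35 (SE 0.09), from 16.1, 16.7, 15.1 and 16.9 CPM in WT to 19.1, 24.3, 17.4 and 18.9 in Null libraries at baseline, and from 13.9, 14.4, 13.0 and 17.3 to 19.0, 20.9 and 18.7 on DOCA-salt. *Aph1a*, a subunit of gamma-secretase, *Rbl2*, a retinoblastoma-like repressor of the cell cycle, and *Ect2l*, a low gene at 0.0815 to 1.52 CPM, had 0.17, 0.11 and 1.15. *Ect2l* was over 1 CPM in the library labelled DOCA-CRE replicate 3 alone and was not tested without it. *Ppl*, which encodes periplakin, a protein of cell junctions, was a leading gene with 1.03 (SE 0.26), but its groups overlapped at baseline.

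On the lower side, *Cgref1*, a secreted protein that slows cell growth, led by p. Its levels were 22.9, 26.6, 24.7 and 25.4 CPM in WT and 18.2, 13.9, 19.8 and 17.9 in Null libraries at baseline, and 40.2, 33.5, 26.9 and 37.7 in WT and 19.5, 24.3 and 30.7 in Null libraries on DOCA-salt. The groups were separate at baseline and overlapped on DOCA-salt through the library labelled replicate 3. The log2 difference was -0.50 (SE 0.11, exact permutation p = 0.00204), with -0.51 at baseline and -0.48 on DOCA-salt, and -0.57 over both cohorts without that library.

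The 6 genes with separate groups on the lower side were *Tmed3*, *Gm43518*, *Dlat*, *Armc6*, *Wdr45b* and *Ppp2ca*. *Dlat* encodes the E2 subunit of pyruvate dehydrogenase, which feeds the citric acid cycle. It was at 163.7, 157.9, 158.2 and 142.6 CPM in WT and 137.8, 130.5, 134.8 and 138.7 in Null libraries at baseline, and at 147.6, 132.0, 133.0 and 137.0 in WT and 114.0, 131.7 and 122.3 in Null libraries on DOCA-salt. The margin on DOCA-salt was a fraction of a CPM, and the log2 difference was -0.18 (SE 0.05, exact permutation p = 0.000408). That p follows from the separate groups by which the gene was chosen. *Tmed3*, which carries cargo out of the endoplasmic reticulum, had -0.24 (SE 0.07), *Wdr45b*, an autophagy protein, -0.19 (SE 0.06), and *Ppp2ca*, the catalytic subunit of protein phosphatase 2A, -0.12 (SE 0.05). *Armc6* had -0.23 (SE 0.07) and *Gm43518*, which overlaps *Denr* and *Ccdc62* on its strand, -0.34 (SE 0.10).

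Among the other leading genes on the lower side, *Uts2b*, which encodes the vasoactive peptide urotensin-2B, had the largest difference, -1.23 (SE 0.35). It was at 6.99, 6.60, 5.62 and 5.35 CPM in WT and 3.05, 0.256, 2.65 and 1.64 in Null libraries at baseline, and at 6.81, 8.18, 2.40 and 9.04 in WT and 2.95, 5.15 and 3.44 in Null libraries on DOCA-salt. The groups were separate at baseline, and on DOCA-salt 1 WT library was the lowest of its cohort. *Gabrg1*, a GABA-A receptor subunit, had -0.55 (SE 0.16), *Hsd17b7*, an enzyme of cholesterol synthesis, -0.39 (SE 0.11), *Prmt2*, an arginine methyltransferase, -0.27 (SE 0.08), *B3galt1*, a galactosyltransferase, -0.25 (SE 0.07), *Spryd7* -0.26 (SE 0.08) and *Zfp9* -0.27 (SE 0.08). *Prmt2* was alone among the 24 leading genes in having an unadjusted interaction p under 0.05 (0.0185), with -0.12 at baseline and -0.46 on DOCA-salt.

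*Atp6ap2*, the gene that Cre was meant to delete, lies on the X chromosome from 12587801 to 12617049 and did not pass the test. At baseline it was at 114.3, 123.2, 117.4 and 139.2 CPM in WT and 105.7, 119.9, 123.3 and 126.4 in Null libraries, which overlapped. On DOCA-salt it was at 141.6, 133.8, 154.5 and 143.6 CPM in WT and 90.2, 89.6 and 145.5 in Null libraries, so that the library labelled replicate 3 was within the WT range. Means were 123.5 ± 11.1 CPM in WT and 118.8 ± 9.15 in Null libraries at baseline (SD, n = 4 each), and 143.3 ± 8.53 (SD, n = 4) and 108.4 ± 32.1 (SD, n = 3) on DOCA-salt. The log2 difference over both cohorts was -0.22 (SE 0.11, adjusted p = 0.825 with edgeR, exact permutation p = 0.0624), with -0.06 at baseline and -0.40 on DOCA-salt (interaction p = 0.0957, unadjusted). Without the library labelled replicate 3 the log2 difference was -0.30 over both cohorts and -0.67 on DOCA-salt. That library had the highest Null level on DOCA-salt, so leaving it out favours a lower value and is no test of the gene. Counts cover the whole gene, while the floxed part is exon 2 alone, so RNA that lacks this exon may still be counted.

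The V-ATPase genes, whose pump PRR assists, differed by little. Of 17 tested, 14 were on the lower and 3 on the higher side, where 49.9% of all genes were higher. In both cohorts 10 were lower and 0 higher, against 19.7% and 22.7% of all genes. The median log2 difference was -0.12. *Atp6v1a*, a catalytic subunit of the pump, was the 1 member with an unadjusted p under 0.05. It had 435.2, 481.5, 459.2 and 525.4 CPM in WT and 447.4, 433.8, 464.3 and 462.8 in Null libraries at baseline, and 437.6, 419.6, 413.2 and 382.6 in WT and 301.6, 362.4 and 367.1 in Null libraries on DOCA-salt. The groups overlapped at baseline and were separate on DOCA-salt, with a log2 difference of -0.16 (SE 0.07, exact permutation p = 0.011). Of 29 lysosome and autophagy genes, 5 were higher and 7 lower in both cohorts, and of 15 pan-neuronal genes 0 and 4. The shares over all genes were 22.7% higher and 19.7% lower in both, which the lysosome counts were near. Over both cohorts 14 of the 15 pan-neuronal genes were on the lower side, with a median of -0.09. A small shift to the lower side was thus not particular to the V-ATPase genes.

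**Figure D3:**
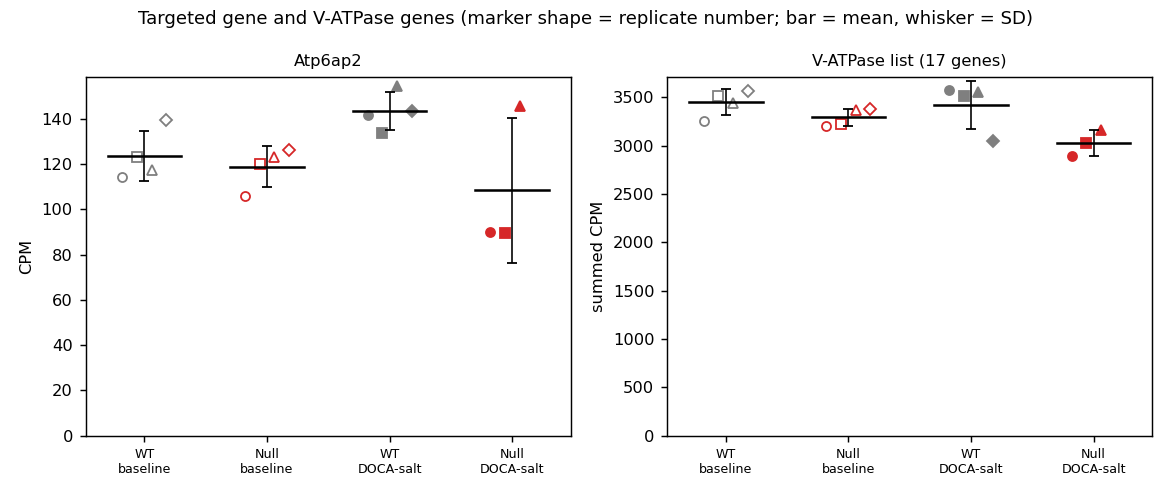
Level of *Atp6ap2* in CPM (left) and summed CPM of 17 V-ATPase genes (right) per library in the 4 groups, vertical axes from 0, WT in grey and Null in red. Marker shape is the replicate number, the bar the mean and the whisker the SD. The library labelled DOCA-CRE replicate 3 has 145.5 CPM of *Atp6ap2*, among the WT libraries at 133.8 to 154.5.

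A gene that differs alike in both cohorts was not the rule. The direction was the same in 6304 genes (42.4%), 3372 higher (22.7%) and 2932 lower (19.7%), and across genes the log2 differences of the cohorts had Pearson's r = -0.170 and Spearman's rho = -0.227. These describe genes, which are not independent replicates. Among the 856 genes with an unadjusted p under 0.05 over both cohorts, 835 had the same direction in both (97.5%), which the choice by a pooled p favours. Tested by cohort, 0 genes passed at baseline (edgeR, 1498 at an unadjusted p under 0.05, 10.1%). On DOCA-salt 3 passed (0.0202%, with 2140 or 14.4% at an unadjusted p under 0.05). These were *Celf6* (-1.38), a splicing regulator, *Grb10* (-0.67), an adaptor that restrains insulin signalling, and *Kif1c* (0.58), a transport motor, all named after their values were seen. Leaving out libraries in turn, the count was 0 for 12 of 15, 1 without DOCA-CRE replicate 2, 101 without DOCA-WT replicate 4 and 183 without the library labelled DOCA-CRE replicate 3. The interaction passed in 76 genes (0.512%, with 2490 or 16.8% at an unadjusted p under 0.05), 71 of them higher at baseline and lower on DOCA-salt and 5 the opposite. Of the 76, 0 were in the interferon or GBP lists, which at so small a share says little about those lists. The count of interaction genes was 0 without any of 7 libraries (Baseline-WT replicates 1 and 3, Baseline-CRE replicates 3 and 4, DOCA-WT replicate 3, DOCA-CRE replicates 1 and 2). It was 39 without Baseline-WT replicate 2, 21 without Baseline-CRE replicate 2, 9 without DOCA-WT replicate 2, 218 and 258 without DOCA-WT replicates 1 and 4, and 344 without the library labelled DOCA-CRE replicate 3.

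**Figure D4:**
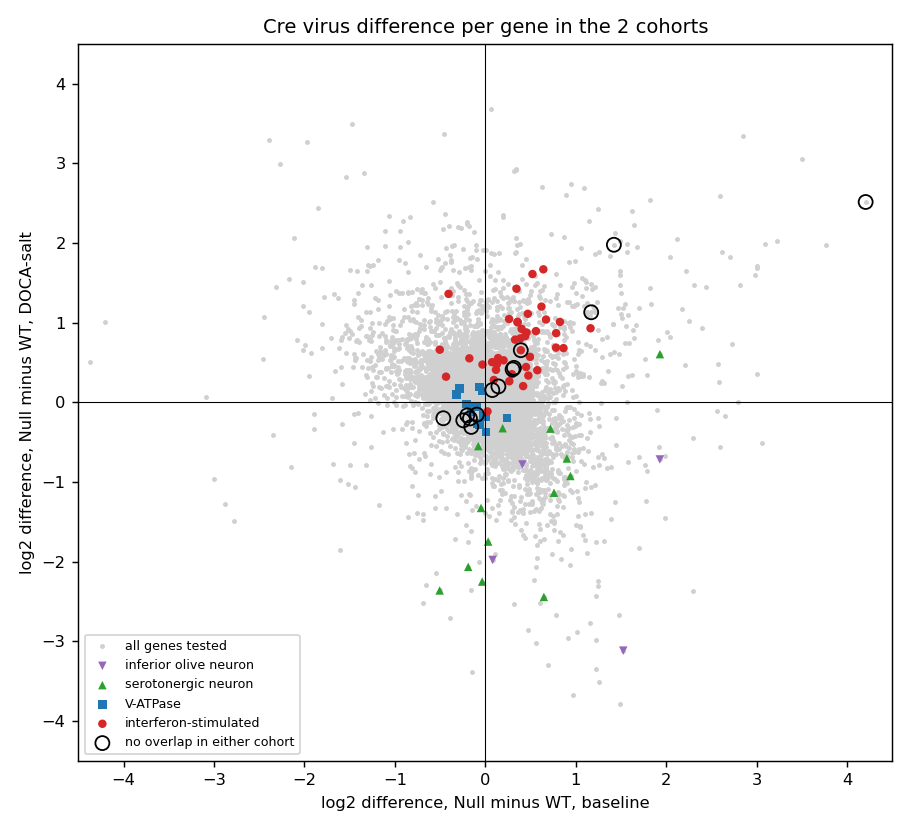
Log2 difference of Null from WT at baseline (horizontal) against that on DOCA-salt (vertical) for each gene tested, with 8 genes beyond the axes. Red points are the interferon list, of which 34 of 40 lie in the upper right, blue squares the V-ATPase genes, green and purple triangles the serotonergic and inferior olive markers, and rings the 14 genes with separate groups in both cohorts.

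Lists of neuron types went opposite ways in the cohorts. The median log2 difference of 12 markers of C1 catecholaminergic neurons was 0.37 at baseline and -1.27 on DOCA-salt, that of 13 serotonergic markers 0.19 and -1.14, and that of 7 inferior olive markers 0.75 and -1.98. Over both cohorts these medians were -0.38, -0.30 and -0.64. At an unadjusted p under 0.05, 2, 5 and 1 members were lower, against 2.07% of all genes. The inferior olive value on DOCA-salt rested on DOCA-WT replicate 3, whose summed level was 512.9 CPM against 38.0 to 62.3 in the other WT and 29.3 to 77.4 in Null libraries. Without it the median was -0.70 on DOCA-salt and 0.09 over both cohorts. Cholinergic motor neuron markers had -1.11 and 0.83, the latter 0.46 without DOCA-WT replicate 3. Mitochondrially encoded genes had -0.37 and 1.15, and 0.15 on DOCA-salt without the library labelled DOCA-CRE replicate 3. In none of these lists did a member pass over both cohorts.

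Of 13 tested genes that the study names from its sequencing, 2 were higher and 4 lower in both cohorts, against 22.7% and 19.7% of all genes. *Tph2*, which makes serotonin, had the smallest p among them. It was at 1.398, 1.96, 3.00 and 4.30 CPM in WT and 1.34, 2.11, 2.59 and 1.33 in Null libraries at baseline, and at 91.2, 63.1, 97.8 and 169.8 in WT and 6.69, 6.80 and 48.9 in Null libraries on DOCA-salt. The groups overlapped at baseline and were separate on DOCA-salt, with log2 differences of -0.51 and -2.36 and -1.67 over both (SE 0.52, exact permutation p = 0.00653). Without the library labelled DOCA-CRE replicate 3 it was -2.27 over both cohorts and -3.97 on DOCA-salt, which passed there (edgeR adjusted p = 0.0021). That library had the highest Null level of *Tph2* on DOCA-salt, which favours the larger difference. *Slc6a4*, the serotonin transporter, had -0.04 and -2.25, and *Ddc*, which makes dopamine and serotonin, -0.05 and -1.33. Without that library their DOCA-salt values were -4.10 and -1.87 and passed too (edgeR adjusted p = 0.0295 and 0.00921), as did *Agtr1a* at -3.94 (0.0281). That library was also the highest Null library on DOCA-salt for *Slc6a4* and *Ddc*. *Th* (1.05 and -1.56), *Dbh* (0.45 and -1.51) and *Pnmt* (0.94 and -1.84), enzymes of catecholamine synthesis, were of opposite sign in the cohorts, as were *Agtr1a*, an angiotensin II receptor (1.70 and -1.83), and *Pou4f1*, a neuronal transcription factor (1.496 and -5.12). *Cartpt*, a neuropeptide of C1 neurons that the study does not name, had -0.21 and -1.54.

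Of the inflammatory genes it names, *Nlrp3*, the inflammasome sensor, had 0.17 at baseline and 1.33 on DOCA-salt, and 0.81 over both (SE 0.36, exact permutation p = 0.0531). It was at 1.05, 0.570, 0.225 and 0.729 CPM in WT and 1.27, 0.575, 0.801 and 0.234 in Null libraries at baseline, and at 1.03, 0.876, 0.431 and 0.943 in WT and 2.38, 1.69 and 2.14 in Null libraries on DOCA-salt. It overlapped at baseline and was separate on DOCA-salt. Over both cohorts, *Cyba*, the p22phox subunit of NADPH oxidase, had 0.29 (SE 0.25) and *Nfkb1*, an NF-kappa-B subunit, 0.08 (SE 0.08). Without the library labelled DOCA-CRE replicate 3 their DOCA-salt values were 0.84 and 0.26 and did not pass (edgeR adjusted p = 0.269 and 0.252). In the list of 20 tested inflammasome, NF-kappa-B and NADPH oxidase genes, 12 were higher and 4 lower in both cohorts, the former 60.0% of the list, against 22.7% and 19.7% of all genes.

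**Figure D5:**
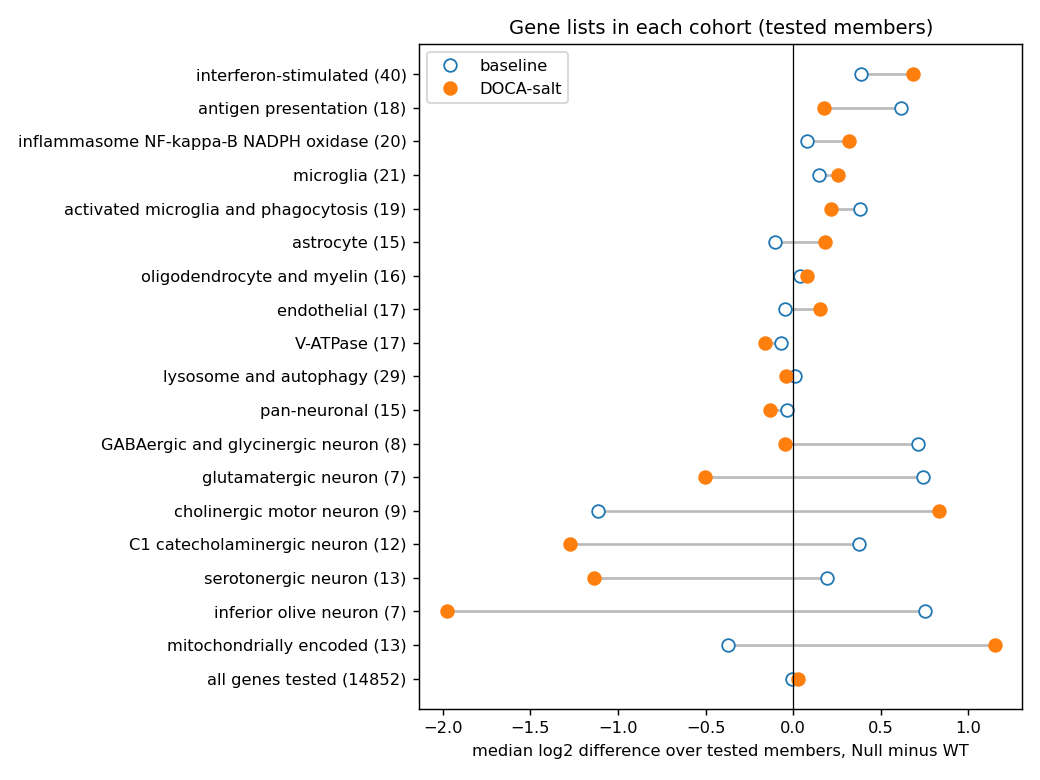
Median log2 difference of Null from WT over the tested members of 18 gene lists and all genes (number tested in brackets), at baseline (open) and on DOCA-salt (filled). The interferon list is at 0.39 and 0.68, both above 0, while the inferior olive list is at 0.75 and -1.98, the latter -0.70 without DOCA-WT replicate 3.

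Sex pattern moved with the virus groups, 2 of 8 WT and 4 of 7 Null libraries being male. With sex pattern as a term, log2 differences were 0.98 for *Gbp3*, 0.74 for *Gbp7*, 0.50 for *Ddx58*, 0.77 for *Parp14* and -0.21 for *Atp6ap2*, close to those above. Among female-pattern libraries alone they were 0.80, 0.86, 0.55, 0.62 and -0.02. In that subset the Null group on DOCA-salt is the library labelled DOCA-CRE replicate 3 alone, so the *Atp6ap2* value rests on it. *Drd1* was not tested in that subset and had 1.53 with the term.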

How the data were processed

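The authors deposited raw counts per gene, unnormalised, for 15 libraries prepared with the Takara SMART-seq stranded kit for low input and aligned with STAR in the MAPR-Seq workflow. The submitters' processing notes name GRCm38.p6 and FastQC, and the counter is not given in the sources used here. Other deposited tables hold fold changes and FDR values of the authors for selected genes and were not used. Unmapped value columns numbered 0.

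Protein-coding genes over 1 CPM in at least 1 library were fitted with TMM factors in edgeR 4.0.16 (R 4.3.3), with virus and cohort as terms and all 15 libraries, and the quasi-likelihood p was adjusted by Benjamini-Hochberg over all genes tested, with a threshold of 0.05. The cohort contrasts and the interaction came from a fit with 1 term per group. The exact test permuted the virus label within cohort on log2(CPM + 0.5) and was two-sided. For genes chosen by a small p or by separate groups, its p follows largely from that choice and is no independent support. On simulated data for the Cre virus comparison over 14852 genes, 100% of 100 genes changed 4-fold and 90% of 100 changed 2-fold were recovered. Changes were planted only in genes averaging over 1 CPM, and the simulation held no cohort effect, outlying library or shift in cell mix. It therefore does not show that a change of that size would pass in the libraries here. Library totals bear on precision as counting error only.

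Named were *Atp6ap2*, up to 12 genes of smallest p in each direction that differed alike in both cohorts and averaged 1 CPM or more in the virus group with the higher level, genes with separate groups in both, genes the study names and list members a sentence is about. The members and lists were chosen with earlier results of these data known. Gene spans are from GENCODE vM21, since the count table gives the position of 1 exon, and promoters are from RefSeq. Alternatives were DESeq2 1.42.0, limma 3.58.1 voom, the likelihood ratio test, other scalings and filters, all biotypes, added terms and left-out libraries. Those on the cohort contrasts, the lists without single libraries and the joint removal of 2 libraries were added after seeing the data. Replicate numbers did not pair the libraries: 8 of 21 same-numbered pairs correlated over 0.1. A few genes of the lists are not reported here by name.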

Additional observations from a re-analysis of the deposited data

Results flagged for a closer look

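Of 225 groups of 4 libraries examined, 24 (10.7%) held a library whose gap to the others was above the 95% limit of Dixon's test, which chance passes in about 1 in 20 groups. Baseline-CRE replicate 1 held 13 of the 24. It was high for *Gbp10* (5.41 CPM), *Gm43302* (14.3 CPM), *Gbp6* (18.8 CPM), *Iigp1* (32.2 CPM), *Tgtp1* (3.31 CPM), *Tgtp2* (10.9 CPM), *Igtp* (33.5 CPM), *Irgm2* (37.9 CPM) and *Irgm1* (43.4 CPM). The same library was high for *Nlrc5* (14.4 CPM) and *Psmb9* (2.86 CPM), and for the summed levels of the GBP genes (144.0 CPM) and the IRG genes (161.0 CPM). The other 3 libraries of its group had 0.431 to 1.17 CPM of *Gbp10* and 9.97 to 14.3 CPM of *Irgm1*.

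Single libraries stood apart elsewhere. Among WT libraries at baseline, replicate 2 was high for *Gbp4* (4.97 CPM) and *Pnmt* (0.244 CPM), replicate 3 for *Irgm1* (13.7 CPM) and *Cyba* (5.77 CPM), and replicate 1 was low for *Aif1* (2.73 CPM). Baseline-CRE replicate 2 was low for *Gabrg1* (38.2 CPM) and high for *Ddc* (9.65 CPM). On DOCA-salt, WT replicate 3 was high for *Ddx58* (10.9 CPM) and for *Pou4f1* (112.0 CPM, the others 0.656 to 4.40), WT replicate 1 was high for *Spryd7* (66.5 CPM), and WT replicate 4 had a low V-ATPase sum (3047 CPM).

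The effect of the Cre virus differed between the cohorts by the interaction test of edgeR's quasi-likelihood fit in 76 genes. Among the genes named in the report these were *Celf6*, with a log2 difference on DOCA-salt minus that at baseline of -1.80 (adjusted p below the threshold), and *Grb10*, with -0.83.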

How the results depend on the processing

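No alternative of scaling, filter, biotype, added term or left-out library gave a gene that passed over both cohorts, the replicate block (0 genes) included, and leaving out libraries gave 0 to 0. DESeq2 called 1 gene, *Gbp10* (log2 difference 3.32), and the likelihood ratio test 4, among them *Gbp10* (3.28) and *Drd1* (1.66), all past 2-fold. *Atp6ap2* was lower under all 31 alternatives, from -0.33 to -0.02, with -0.21 under the replicate block and -0.30 to -0.15 with a library left out. The numbers pair no libraries, and 4 of 15 libraries correlated best with their own number.

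Baseline genes were 0 with any library left out. The 3 DOCA-salt genes became 281 with DESeq2, 187 with the likelihood ratio test, 0 with voom, 0 with sex pattern as a term and 0 to 183 with a library left out. The 76 interaction genes became 567 with DESeq2, 455 with the likelihood ratio test and 0 to 344 with a library left out. The cause was not tested.

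Of 68 other genes, 62 kept their direction under every alternative in which they were tested, and 6 did not. *Agtr1a* was 0.11 with DESeq2, 0.11 with the likelihood ratio test, 0.45 in female-pattern libraries, 0.096 without DOCA-WT replicate 3, 0.26 and 0.28 without DOCA-CRE replicates 1 and 2, and 0.19 without Baseline-CRE 1 and DOCA-CRE 1 together. With a library left out it ran from -0.49 to 0.28. *Pou4f1* was 0.73 with voom and 0.21 without DOCA-WT replicate 3, and otherwise as low as -1.83 with a library left out. *Dhx58* was 0.00048 with voom, and 0.049, 0.062 and 0.0042 without Baseline-WT replicate 3, Baseline-CRE replicate 2 and DOCA-CRE replicate 1, with -0.18 as the lowest. *Th* was 0.13 without DOCA-CRE replicate 3 and with sex pattern as a term, 0.49 in female-pattern libraries and 0.058 without DOCA-CRE replicate 2, with -0.53 as the lowest when a library was left out. In female-pattern libraries *Dbh* was 0.0997 and *Nfkb1* -0.038. *Drd1*, *Gbp10* and *Pnmt* rest on few counts in at least 1 group.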
